A study of Mus musculus with 4 samples.

Results

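The genes described here are 41 interferon-stimulated genes and their STAT and IRF regulators, taken by symbol from the 21523 genes of a deposited expression table. All 41 had a row. They were grouped by role into 17 antiviral effectors, 8 interferon-inducible GTPases, 5 regulators, 5 nucleic acid sensors and 6 other interferon-induced genes. The cells were RAW264.7, a macrophage-like mouse line derived from a tumour that Abelson leukaemia virus had induced. Untreated control cultures (2 libraries) were compared with cultures given 0.5 mM 1,5-anhydroglucitol (1,5-AG) for 24 h (2 libraries). 1,5-AG is a dietary polyol that resembles glucose without the hydroxyl on carbon 1. All libraries came from this 1 line, grown in DMEM with serum and antibiotics. The labels give no culture time for the controls and do not say whether the libraries of a group came from separate cultures, so the p-values cover only the library-to-library spread, possibly a technical one.

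Type I interferons bind the receptor chains IFNAR1 and IFNAR2, whose kinases JAK1 and TYK2 activate STAT proteins. A complex that holds STAT2 and IRF9 then binds the interferon-stimulated response element (ISRE) in the promoters of antiviral genes. Interferon gamma acts on the gamma-activated sequence (GAS), which drives IRF1 and many GTPase genes. Macrophages keep a low standing output of this pathway without infection, and raise it strongly when nucleic acids or bacterial products are sensed.

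The promoters of 4 genes are printed because Isg15 and Oas3 were lower with 1,5-AG while Oas1a and Oas1g, neighbours of Oas3 on chromosome 5, did not pass the test. Each is the 250 bases before the RefSeq start (build GRCm38.p6), read 5′ to 3′ on the gene's strand. Capitals mark the ISRE core letters, which are 2 copies of GAAA with any 2 bases between them, in overlapping copies where the capitals run past 10 bases.
Isg15, lower with 1,5-AG, chr4:156200819-156201068, minus strand: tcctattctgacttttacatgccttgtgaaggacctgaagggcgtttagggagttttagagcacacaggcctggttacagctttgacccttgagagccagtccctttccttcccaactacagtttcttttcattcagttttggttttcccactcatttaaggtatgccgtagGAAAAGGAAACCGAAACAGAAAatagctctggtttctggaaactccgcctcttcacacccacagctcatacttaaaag
Oas3, lower with 1,5-AG, chr5:120777660-120777909, minus strand: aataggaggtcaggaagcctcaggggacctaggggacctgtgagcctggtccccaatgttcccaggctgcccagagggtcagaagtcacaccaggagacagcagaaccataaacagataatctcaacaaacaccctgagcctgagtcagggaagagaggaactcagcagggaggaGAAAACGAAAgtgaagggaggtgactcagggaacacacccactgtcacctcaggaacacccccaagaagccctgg
Oas1a, not past the test, chr5:120907526-120907775, minus strand: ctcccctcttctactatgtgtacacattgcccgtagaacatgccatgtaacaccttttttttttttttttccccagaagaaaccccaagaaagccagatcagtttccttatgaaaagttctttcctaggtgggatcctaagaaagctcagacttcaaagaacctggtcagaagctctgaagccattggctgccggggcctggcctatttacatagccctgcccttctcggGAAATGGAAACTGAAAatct
Oas1g, not past the test, chr5:120887614-120887863, minus strand: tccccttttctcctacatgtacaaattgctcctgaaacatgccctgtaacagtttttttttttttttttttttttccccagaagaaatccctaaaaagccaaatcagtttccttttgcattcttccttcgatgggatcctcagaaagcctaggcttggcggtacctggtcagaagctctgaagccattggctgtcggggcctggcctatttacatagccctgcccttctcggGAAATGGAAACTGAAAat

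The ISRE letters were searched on both strands. They began 78 to 66 bases before the start in Isg15 (3 overlapping copies) and 75 bases before it in Oas3 (1 copy). In Oas1a they began 20 and 14 bases before the start, and in Oas1g 18 and 12 (2 overlapping copies each). Windows were at hand for 33 of the 41 genes, and 19 of these genes held the ISRE letters, against 2.98% of all 32851 windows and 3.46% of 27025 genes. By role these were 9 of 14 effectors, 6 of 7 GTPases, 1 of 4 regulators, 1 of 3 sensors and 2 of 5 other genes. The GAS letters TTCNNNGAA, which read the same on both strands, were in 8 of the 33 genes, against 7.02% of windows and 8.13% of genes. These genes were Gbp5, Gbp7, Igtp, Oas1a, Bst2, Isg20, Ifit2 and Irf1. Among tested genes with a window, the 10 with the ISRE letters had a median log2 fold change of -0.14 (-0.46 to 0.02). The 11 without them had -0.10 (-0.26 to 0.10). The tested genes Oas2 (-0.39), Usp18 (-0.33), Mx2 (-0.30), Ifi204 (-0.25) and Parp14 (-0.14) had no window at hand and are in neither median. A match of letters is a description of the sequence and not a binding site.

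Levels are given as FPKM (fragments per kilobase of exon and scaled to the library total). The libraries held 14616556 to 16228673 assigned fragments, a total recovered from the FPKM values and exon lengths. All 7 macrophage markers exceeded a mean of 1 FPKM, with a summed level of 1464 and 1413 FPKM in control and 1410 and 1381 with 1,5-AG. Both 1,5-AG libraries lay below both controls for Adgre1 (20.1 and 23.4 against 16.9 and 17.5 FPKM), Csf1r (258.1 and 258.4 against 237.2 and 240.4) and Cd68 (499.6 and 497.9 against 471.8 and 479.0). The groups overlapped in the other 4, and the markers' part in the results was not tested. Of the markers of plasmacytoid dendritic cells, the professional producers of type I interferon, Bst2 and Tcf4 were expressed, while the defining gene Siglech was at 0 in control library 2 and 1,5-AG library 2 and at 0.0195 and 0.0202 FPKM in the others. Summed marker levels were 1.19 to 1.37 FPKM for T and NK cells, at most 0.0254 for fibroblasts, and for neutrophils 0.660 and 0.761 in control against 0.394 and 0.441 with 1,5-AG. The B cell sum was 49.3 and 53.8 FPKM in control and 38.1 and 39.8 with 1,5-AG. It was almost wholly Ighm, with Pax5 at 0 in 3 libraries and at 0.0149 FPKM in 1,5-AG library 2, and its part in the results, like that of the neutrophil sum, was not tested. In these bulk samples, fewer cells of a kind and less RNA per cell cannot be told apart.

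Most of the 41 genes had lower values with 1,5-AG, by small amounts, and few passed the test. A mean of at least 1 FPKM was required for the test (limma on log2(FPKM + 1), Benjamini-Hochberg adjustment over 11120 genes), and 26 members met it. Of these, Isg15 and Oas3 fell and 0 rose, at an adjusted p threshold of 0.05. Over all tested genes the same call was made for 0.647% in the lower direction and 0.809% in the higher, 1.46% together. At unadjusted p under 0.05 it was 6 members lower and 0 higher, against 9.04% and 9.15% of all tested genes. Under limma's voom on the recovered fragments 4 of 25 members were lower and 0 higher, against 4.64% and 3.65% of genes. That fit left out Isg15, whose fragments were not whole at the annotated exon length. The fold change was negative in 22 of the 26 members, with a median of -0.14, while 50.9% of all tested genes were negative with a median of -0.0025. In 16 of the 26 both 1,5-AG libraries lay below both controls and in 2 above, against 25.4% and 24.2% of tested genes. The filter left out 15 members, so the counts were also made without it: 35 of all 41 members were negative with a median of -0.12, and 24 had both 1,5-AG libraries below both controls, against 19.9% of all genes above 0. With Gbp2, which had 0 fragments in both 1,5-AG libraries, set to a floor of 3 fragments over the group, this median was -0.12 as well. The median difference of the 26 from the control mean was -0.15 in 1,5-AG library 1 and -0.14 in library 2, so both libraries lay on the same side.

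**Figure D1:**
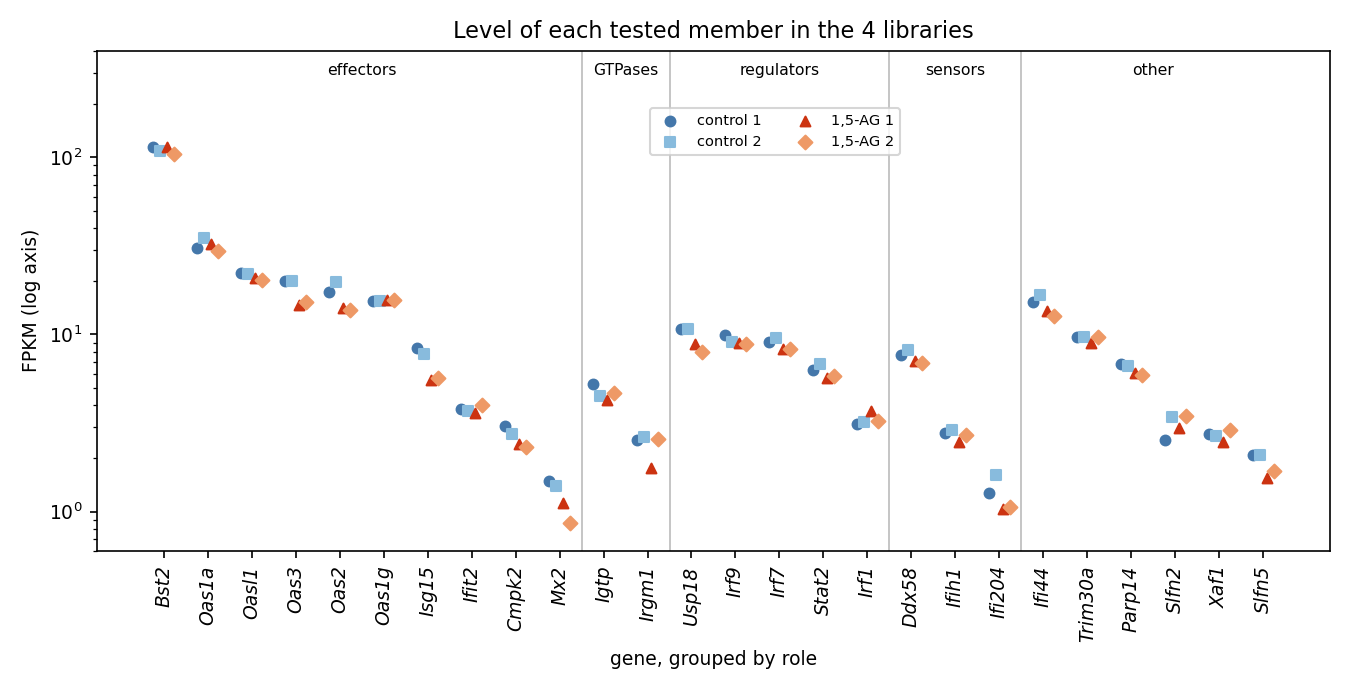
FPKM (log axis) of the 26 tested genes in each of the 4 libraries, grouped by role and ordered by mean level. Blue points are control and red and orange points 1,5-AG libraries. Bst2 stands between 105.0 and 115.2 FPKM, and the red and orange points of Isg15, Oas3, Oas2 and Usp18 lie below both blue points.

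Many antiviral effectors act on viral RNA, viral proteins or budding particles. Isg15, a ubiquitin-like protein that is conjugated to viral and host proteins, had 8.35 and 7.80 FPKM in the control libraries and 5.55 and 5.65 with 1,5-AG. Both 1,5-AG libraries lay below both controls (8.07 ± 0.387 against 5.60 ± 0.0708, SD, n = 2 per group). The log2 fold change was -0.46 (SE 0.06, limma adjusted p = 0.0456). The gene lies on chromosome 4 (156199424 to 156200818, minus strand, mm10). Isg15 rests on few fragments. Its values were whole multiples of 1 fragment at an exon length of 703 bp rather than the annotated 756 bp, which gave 89 fragments in each control library and 57 and 60 in the 1,5-AG libraries. The 1,5-AG to control ratio of these fragments was 0.694 (95% Clopper-Pearson limits 0.545 to 0.881, counting error only). In a voom fit with refitted exon lengths, added after the values were seen, Isg15 did not pass (log2 fold change -0.52, adjusted p = 0.141).

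The 2′-5′-oligoadenylate synthetases sense double-stranded RNA and make the messenger that activates RNase L. Oas3 had 20.05 and 20.04 FPKM in control and 14.6 and 15.3 with 1,5-AG, and the groups were separate. The gene lies on chromosome 5 (120753098 to 120777661, minus strand). The log2 fold change was -0.40 (SE 0.05, limma adjusted p = 0.0370), on 2149 and 2299 fragments against 1513 and 1638. It passed with voom as well (-0.42, adjusted p = 1.7e-05). Oas2, the neighbouring gene, had 17.4 and 19.7 FPKM in control and 14.0 and 13.7 with 1,5-AG. Its groups were separate too, and its log2 fold change of -0.39 (SE 0.07) missed the limma threshold (adjusted p = 0.0803) and passed with voom (adjusted p = 0.00035). Oas1a and Oas1g lie in the same cluster, 129.9 and 110.0 kb from the Oas3 start, and are given in full because of that position, a choice made after their values were seen. Oas1a had 30.6 and 35.1 FPKM in control and 32.6 and 29.8 with 1,5-AG, so the groups overlapped (log2 fold change -0.07, SE 0.08). Oas1g had 15.4 and 15.5 against 15.7 and 15.6 FPKM, both above the controls by little (0.02, SE 0.04). The longest protein-coding transcripts of Oas1a and Oas1g are 97.5% identical over 1860 aligned bases, so the split of reads between them is uncertain.

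Measured within each library, the ratio of Oas3 to Oas1g was 1.30 and 1.29 in control and 0.934 and 0.980 with 1,5-AG. The ratio of Oas3 to Oas1a was 0.656 and 0.571 against 0.450 and 0.515. Both ratios were lower in each 1,5-AG library than in each control. The genes of these ratios were picked after their values were seen, so the ratios restate the fold changes above and add no support. An exact two-sided permutation test of 2 libraries against 2 cannot go below p = 0.333, and no other test of these ratios was run. The genes Oas1b and Oas1c, which lie between them and are not among the 41, had -0.10 (SE 0.13) and -0.12 (SE 0.11). Oasl1, an OAS-like protein that restrains Irf7 translation and lies on the same chromosome outside the cluster, had 22.3 and 21.9 against 20.9 and 20.2 FPKM (-0.10, adjusted p = 0.342).

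**Figure D2:**
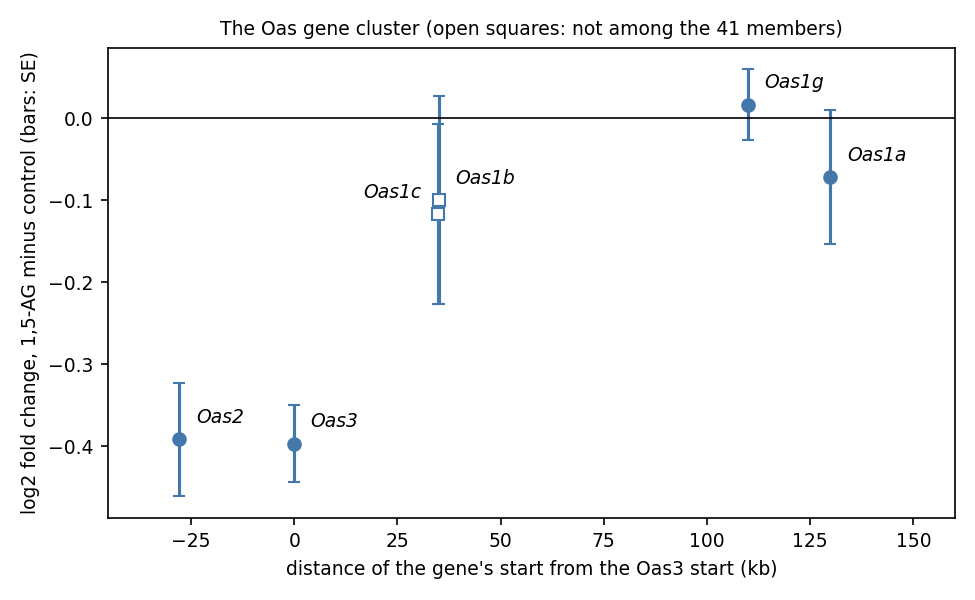
Log2 fold change (1,5-AG minus control, bars are SE) of the Oas genes of the chromosome 5 cluster against the distance of each gene's start from that of Oas3. Oas2 and Oas3 sit near -0.40, and the remaining Oas genes between -0.12 and 0.02.

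Bst2, the tetherin that holds budding virus at the cell surface, was the most abundant member at 115.2 and 109.1 FPKM in control and 114.3 and 105.0 with 1,5-AG. Its groups overlapped (log2 fold change -0.03, SE 0.06). Of the other tested effectors, Mx2, a dynamin-like GTPase, had 1.496 and 1.40 against 1.12 and 0.86 FPKM (-0.30, adjusted p = 0.325). The annotation calls Mx2 a polymorphic pseudogene, and common laboratory mouse strains carry disabled Mx1 and Mx2 alleles. Cmpk2, a nucleotide kinase gene next to the viperin gene Rsad2, had 3.03 and 2.75 against 2.40 and 2.30 FPKM (-0.21, adjusted p = 0.299). Ifit2, which binds viral RNA, had 3.78 and 3.70 against 3.59 and 3.98 FPKM, and its groups overlapped (0.01, SE 0.08).

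The regulators carry the signal to the promoter or restrain it. Usp18, the protease that removes ISG15 from proteins and blocks the receptor IFNAR2, had 10.80 and 10.78 FPKM in control and 8.78 and 7.99 with 1,5-AG. The groups were separate, with a log2 fold change of -0.33 (SE 0.06) that missed the limma threshold (adjusted p = 0.0858) and passed with voom (adjusted p = 0.016). Irf7, the amplifier of interferon alpha genes, had 9.03 and 9.55 against 8.26 and 8.27 FPKM (-0.15, SE 0.05, limma adjusted p = 0.244). Stat2 had 6.27 and 6.85 against 5.66 and 5.82 FPKM (-0.17), and Irf9, its DNA-binding partner, 9.97 and 9.12 against 8.97 and 8.88 (-0.09). All 3 had separate groups, with 1,5-AG lower, a pattern found in 25.4% of all tested genes, and did not pass. Irf1, an interferon gamma target, was the regulator with a positive value, at 3.13 and 3.19 against 3.70 and 3.25 FPKM. Its groups were separate as well, with both 1,5-AG libraries above the controls, as in 24.2% of all tested genes (0.10, SE 0.09, limma adjusted p = 0.599).

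Of the nucleic acid sensors, Ddx58, the gene of RIG-I, had 7.62 and 8.14 FPKM in control and 7.12 and 6.86 with 1,5-AG (-0.15, SE 0.06, limma adjusted p = 0.279). Ifih1, the gene of MDA5, had 2.78 and 2.89 against 2.47 and 2.70 FPKM (-0.10). Ifi204, a DNA-binding member of the p200 family, had 1.28 and 1.61 against 1.04 and 1.06 FPKM (-0.25, SE 0.13, limma adjusted p = 0.402). The groups were separate in all 3, with 1,5-AG lower, a pattern found in 25.4% of all tested genes. Of the 3, 0 passed the limma test, and 0 also at unadjusted p under 0.05.

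Among the other interferon-induced genes, Ifi44 had 15.2 and 16.7 FPKM in control and 13.5 and 12.75 with 1,5-AG. Its log2 fold change was -0.26 (SE 0.06), with an adjusted p of 0.132 in limma and 0.00578 with voom. Parp14, an ADP-ribosyltransferase, had 6.78 and 6.61 against 6.04 and 5.94 FPKM (-0.14), and Slfn5, a Schlafen family gene, 2.07 and 2.09 against 1.55 and 1.70 (-0.23). Both had separate groups, with 1,5-AG lower, a pattern found in 25.4% of all tested genes, and did not pass. The groups overlapped in Trim30a (-0.06), Xaf1 (-0.0041) and Slfn2 (0.09).

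**Figure D3:**
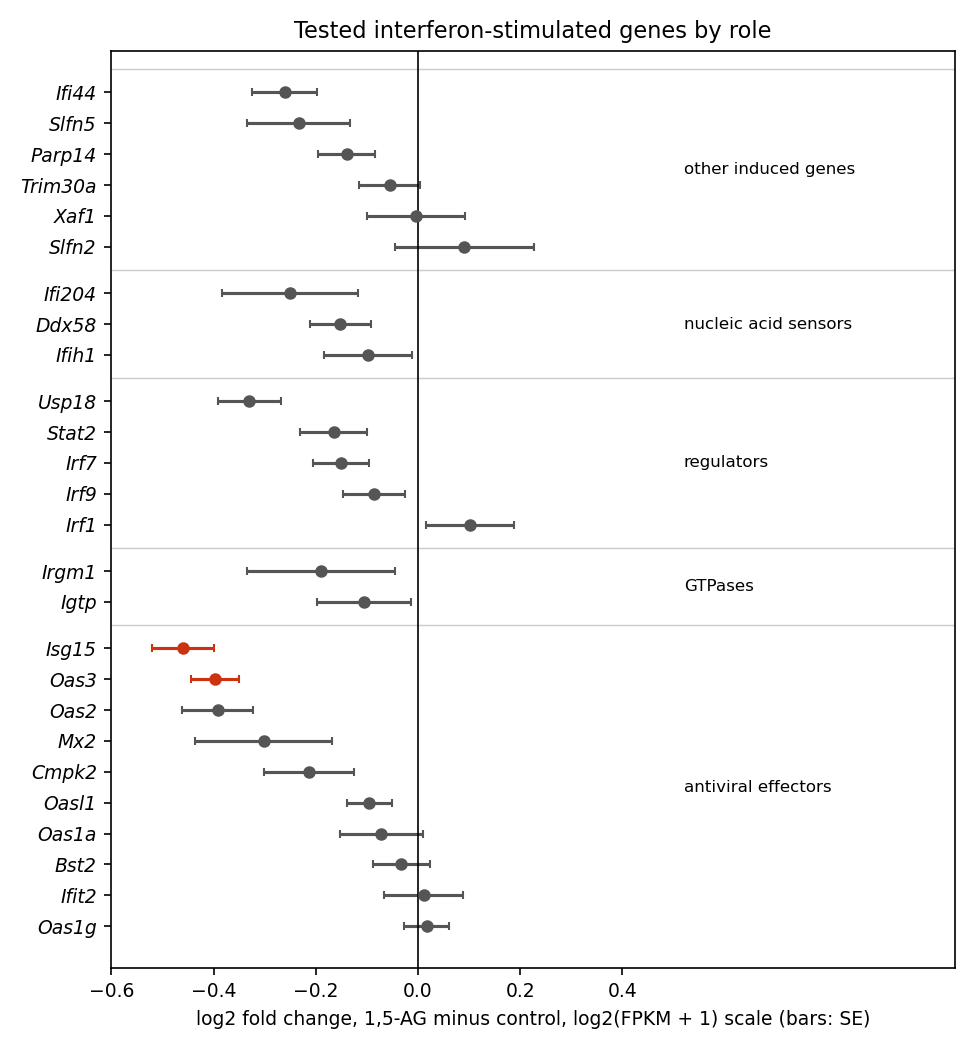
Log2 fold change (1,5-AG minus control) of the 26 tested genes, with SE bars, grouped by role. Red marks Isg15 and Oas3, which passed the limma threshold. Values run from -0.46 for Isg15 to 0.10 for Irf1, and 22 of 26 lie left of 0.

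The interferon-inducible GTPases attack the vacuoles of intracellular pathogens. Only 2 of the 8 reached a mean of 1 FPKM. Igtp, the gene of IRGM3, had 5.28 and 4.51 FPKM in control and 4.26 and 4.68 with 1,5-AG (-0.11, SE 0.09, limma adjusted p = 0.609). Igtp overlaps Irgm2, a gene outside the members, on the same strand of chromosome 11, so the split of reads between them is uncertain. Irgm2 had 3.54 and 3.77 FPKM in control and 3.56 and 2.55 with 1,5-AG, and its groups overlapped. Irgm1, which controls other GTPases of its family, had 2.53 and 2.64 against 1.77 and 2.57 FPKM, so the groups overlapped and 1,5-AG library 1 alone was low (-0.19, SE 0.14, limma adjusted p = 0.557). The guanylate-binding proteins were nearly silent. Gbp7 had 19 and 28 control fragments against 15 and 12, Gbp3 had 14 and 15 against 13 and 5, and Gbp2 had 3 and 4 against 0 and 0. For Gbp2 the 95% Clopper-Pearson upper limit of the 1,5-AG to control ratio was 0.733 (counting error only). Gbp5, Iigp1 and Ifi47 had at most 2 fragments in any library, too few to compare.

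Antiviral effectors were then set against GTPases and regulators. The tested effectors (10 of 17) had a median log2 fold change of -0.15 and ranged from -0.46 to 0.02. The GTPases (2 of 8) had a median of -0.15, and the regulators (5 of 5) -0.15 with a range of -0.33 to 0.10. The GTPase value rested on 1,5-AG library 1: the median was -0.0279 without that library and -0.27 without 1,5-AG library 2. It also includes Igtp, whose split of reads with Irgm2 is uncertain. The effector median was -0.0042 from that of GTPases and regulators together, against a within-group SD of 0.0638 for the same difference between libraries. This difference changed sign between settings, at -0.092 without 1,5-AG library 1, 0.0622 at a mean of at least 5 FPKM and 0.0685 with voom, where Isg15 was left out. The sensors (3 of 5) had a median of -0.15 and the other genes (6 of 6) -0.10. Both called genes were effectors. Effectors, the group with the most tested genes, had the widest range of the 5. Without the filter the medians lay further apart, at -0.21 for effectors, -0.11 for GTPases, -0.15 for regulators and -0.0975 for sensors. The log2(FPKM + 1) scale understates fold changes of low genes, and 6 of 8 GTPases, 7 of 17 effectors and 2 of 5 sensors were below the filter. Gbp7, for example, had -0.12 at a fragment ratio of 0.607. The wider gap between these medians is therefore no measure of a difference between roles. Summed FPKM in each role was below both controls in both 1,5-AG libraries, though a sum follows the most abundant genes of its role. It was 241.3 and 240.7 in control and 227.0 and 214.9 with 1,5-AG for effectors, and 39.2 and 39.5 against 35.4 and 34.2 for regulators. Of the effector sum, Bst2, whose groups overlapped, held 115.2 and 109.1 FPKM in control and 114.3 and 105.0 with 1,5-AG. For GTPases the sums were 8.50 and 7.85 against 6.55 and 7.53.

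The 15 members below 1 FPKM together held 235 and 259 control fragments against 153 and 157. Isg20, an exonuclease gene, had 29 and 34 control fragments against 16 and 14. Corrected for library totals, its ratio was 0.503 (95% Clopper-Pearson limits 0.314 to 0.788, counting error only). Oasl2 had 49 and 75 against 39 and 36 fragments (0.639, 0.473 to 0.858), and the RNA-binding Ifit1 had 26 and 25 against 14 and 16 (0.621, 0.382 to 0.994). Its paralog Ifit3 had 19 and 16 against 6 and 13, with limits that include 1 (0.573, 0.310 to 1.03). Rsad2, the gene of viperin, had 44 and 37 against 34 and 40 fragments, and its groups overlapped (0.965, 0.694 to 1.34). Zbp1, a sensor of Z-form nucleic acid, had 17 and 15 against 8 and 14. Mx1, Ifit3b and Ifi205 had at most 5 fragments in any library. The longest protein-coding transcripts of Ifit3 and Ifit3b are 98.0% identical over 1697 aligned bases, so their split is uncertain.

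**Figure D4:**
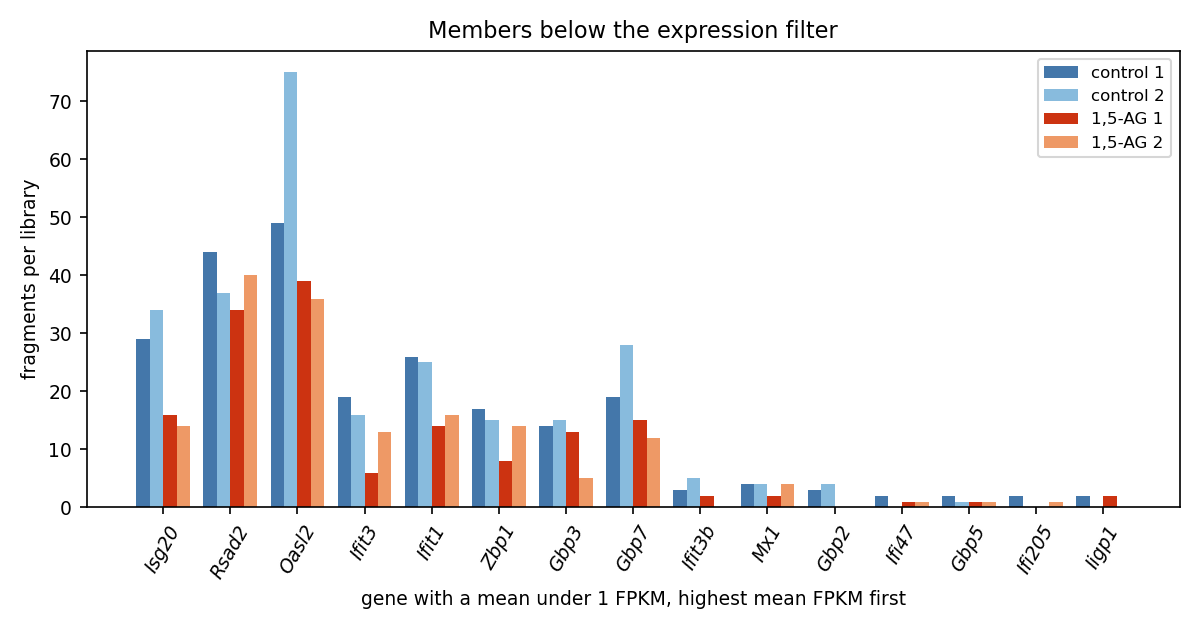
Fragments per library for the 15 genes with a mean under 1 FPKM, highest mean first. Blue bars are control and red and orange bars 1,5-AG libraries. Isg20, Oasl2 and Ifit1 have lower bars in both 1,5-AG libraries, and the bars of Rsad2 overlap.

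The wider pathway was read from 158 further genes, of which 139 had a row and 110 were tested. Of these 79 were negative (median -0.09). By the limma test 2 fell and 1 rose, against 0.647% and 0.809% of all tested genes. Of the interferon genes themselves, Ifnk had a row, with 1 fragment in 1,5-AG library 2 and 0 in the others, and the remaining 13, Ifnb1 among them, were not analysed here. Of the 8 receptor chains and Janus kinases 0 passed the limma test in either direction, and 2 were lower and 0 higher at unadjusted p under 0.05. Over all tested genes 9.04% were lower and 9.15% higher at that unadjusted p, which also holds beside the lists below. Ifnar1 had 14.5 and 13.9 FPKM in control and 14.4 and 13.3 with 1,5-AG (-0.04), and Ifnar2 19.02 and 17.8 against 17.3 and 16.9 (-0.10). Jak1 had -0.04. The 2 lower ones were Tyk2 (12.1 and 11.7 against 10.3 and 10.9 FPKM, -0.16, limma adjusted p = 0.220) and Jak2, the kinase of the interferon gamma receptor. Jak2 had 6.92 and 7.69 against 5.77 and 6.18 FPKM (-0.25, limma adjusted p = 0.177), and it passed with voom (adjusted p = 0.0441). Of 9 signal transducers and IRFs outside the members, and of 12 negative regulators, 0 passed the limma test. At unadjusted p under 0.05 the first list had 0 lower and 1 higher (Irf8, 0.23). The second had 2 lower (Samhd1, -0.18, and Pias3, -0.21) and 0 higher. With voom Irf8 passed as higher (adjusted p = 0.0118) and Samhd1 as lower (0.0110), and Pias3 did not pass (0.163).

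Among 17 genes of sensing upstream of interferon, 11 were negative (median -0.07), and by the limma test Ikbke rose and 0 fell. At unadjusted p under 0.05 this list had 4 lower and 2 higher. With voom Slc15a4 (-0.31, adjusted p = 0.0153) and Unc93b1 (-0.15, adjusted p = 0.0415) passed as lower. Ikbke, the kinase IKK-epsilon that phosphorylates IRF3 and IRF7, had 3.58 and 3.39 FPKM in control and 5.97 and 6.02 with 1,5-AG. Its groups were separate (log2 fold change 0.64, SE 0.06, limma adjusted p = 0.0278). It passed with voom (adjusted p = 6.9e-07), and its limma call was lost without the filter (adjusted p = 0.117), without the variance trend (0.0751) and with any 1 library left out (0.105 to 0.137). In the list of 90 other interferon-induced genes 64 were tested, 50 were negative (median -0.11), and Ifi27l2a and Samd9l fell. Ifi27l2a had 185.2 and 203.1 FPKM in control and 134.6 and 135.6 with 1,5-AG (-0.52, SE 0.05, limma adjusted p = 0.0283). Samd9l, an antiviral translation inhibitor, had 9.87 and 10.15 against 7.35 and 7.04 FPKM (-0.43, SE 0.05, limma adjusted p = 0.0432). Both passed with voom (adjusted p = 1.5e-05 and 0.000177), and both limma calls were lost without the filter (0.125 and 0.133), without the variance trend (0.105 and 0.0988) and with any 1 library left out (0.0909 to 0.136 for Ifi27l2a and 0.142 to 0.167 for Samd9l). At unadjusted p under 0.05 this list had 25 lower and 1 higher, against the shares of all tested genes given above. Jak2, Irf8, Samhd1, Pias3, Slc15a4, Unc93b1 and the genes of this list that did not pass were named after their values were seen. The 1 higher was Ifitm3, which blocks viral entry, at 441.2 and 442.2 against 507.3 and 496.1 FPKM (0.18, limma adjusted p = 0.0792). Ifitm3 passed as higher with voom (adjusted p = 0.00557). Nearest to the threshold among those that did not pass were Ifi30, Rtp4 and Mndal. Ifi30, a lysosomal thiol reductase gene whose row is annotated as a processed transcript, had -1.22 (limma adjusted p = 0.0516). It rested on 59 and 57 against 20 and 11 fragments. Rtp4 had -0.42 (limma adjusted p = 0.0535) and Mndal -0.40 (0.0557). With voom all of them passed as lower (adjusted p = 0.00155, 0.00192 and 0.00354). Mndal overlaps Ifi203 on the same strand of chromosome 1, so the split of reads between them is uncertain. The list was chosen with earlier results of these data known, so its counts are no independent support.

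The calls of Isg15 and Oas3 depended on each library. With any 1 library left out, 0 members passed the limma test, with log2 fold changes of -0.50 to -0.42 for Isg15 and of -0.43 to -0.37 for Oas3. Oas2 and Usp18 were called as well with protein coding genes only (2.64% of genes lower) and at a mean of at least 5 FPKM (2.36%).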

How the data were processed

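RNA of 4 libraries was analysed, 2 control and 2 with 1,5-AG, grouped by sample titles. The authors deposited FPKM values, 1 column per library; the submitters' processing notes name Trimmomatic, HISAT2, Cufflinks and HTSeq with build mm10, and versions, annotation and strand setting are not given in the labels or headers read. Per the labels' protocols, libraries came from a stranded mRNA kit. Of 21523 identifiers 21508 matched GENCODE M21 for symbols and exon lengths. FPKM times length gave whole fragments (tolerance 0.02) in all 4 libraries for 99.4% of matched genes. At this depth 3 fragments in 2 kb of exon correspond to 0.0924 to 0.103 FPKM.

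The test was limma's (3.58.1, R 4.3.3), run on log2(FPKM + 1) of each library with a variance trend, no block and two-sided Benjamini-Hochberg adjusted p at 0.05; fold changes on this scale understate those of low genes. Of rows sharing a symbol 8 were left out. The test was also run on simulated fragments, whose spread beyond counting was fixed for all genes and not estimated from these libraries. That run cannot show whether the calls hold at the spread of the real libraries. Members and lists were chosen with earlier results of these data known. All 41 members are named; full values go to called members and, per role, to the highest, the most changed and the smallest p. Pathway genes are named where called, with Ifnar1, Ifnar2, Jak1, Tyk2 and Ifnb1; a gene the rule returned is not reported here. Alternatives were pseudocount, filter, scaling, variance model, replicate block, voom, each library left out and role grouping.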

Additional observations from a re-analysis of the deposited data

How the results depend on the processing

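Restricting the test to protein coding genes and refitting exon lengths were added once values had been seen, and every other setting was planned. Genes past the threshold, 162 in all, numbered 0 without a filter on low values (2 members called in the filtered test had adjusted p of 0.152 for Isg15 and 0.113 for Oas3), 5 without the variance trend, 360 with the filter at 5 FPKM, 917 with voom, 926 with voom and refitted lengths, 412 among protein coding genes and 2 to 10 with 1 library left out. Members lower, 2, numbered 0 without a filter, 0 without the trend, 0 with 1 library left out, and 4 at a mean of at least 5, with voom, with voom and refitted lengths and among protein coding genes; members higher numbered 0 in each setting. The replicate block gave 310 genes and left the members called at 2; libraries with the same number had deviations from their group means that correlated at 0.0124 over genes, and the labels do not say that numbers mark a shared culture. The median over members, -0.14, was -0.16 and -0.16 with pseudocounts of 0.1 and 0.01, -0.12 without a filter, -0.15 at 5 FPKM, -0.14 with quantile normalization, -0.14 under scaling by median ratios, -0.16 with voom, -0.16 with refitted lengths, -0.14 among protein coding genes and -0.17 to -0.13 with 1 library left out. The effector median, -0.15, was -0.19 and -0.20 with the smaller pseudocounts, -0.21 without a filter, -0.0955 at 5 FPKM, -0.0999 with voom (Isg15 left out), -0.20 with refitted lengths, -0.0955 among protein coding genes (Mx2 left out) and -0.19 to -0.13 with 1 library left out. The regulator median was -0.17, -0.17, -0.17 and -0.17 with the smaller pseudocounts, voom and refitted lengths, and -0.19 to -0.11 with 1 library left out. The GTPase median was -0.27 to -0.0279 with 1 library left out. The sensor median was -0.0975 without a filter and that of other genes -0.14 at 5 FPKM. The effector median minus that of GTPases and regulators was -0.0918 without a filter, 0.0622 at 5 FPKM, 0.0685 with voom (Isg15 left out), -0.0279 with voom and refitted lengths, 0.0622 with Mx1 and Mx2 among the GTPases and -0.092 to 0.0279 with 1 library left out, so its sign depended on the setting. Negative members numbered 21 of 26 under median-ratio scaling and quantile normalization, where Xaf1 turned positive (0.0037 and 0.015). With 1 library left out, the values of Xaf1 (-0.0849 to 0.0767), Bst2 (-0.0935 to 0.0281), Slfn2 (-0.0685 to 0.25), Oas1a (-0.17 to 0.0251), Ifit2 (-0.0469 to 0.0701) changed sign in at least 1 fit. A fit with 1 library left out assumes that the lone library varies like the other group. Why the settings differ was not tested, beyond some of them leaving fewer genes or libraries.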
